A study of Bos taurus with 14 samples.

Results

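The 4 genes described here, SST, TNC, ESM1 and FBLN5, encode secreted proteins and were taken by symbol. They were chosen by their values in these libraries, above 100 RPKM (read counts scaled by gene length and by the mapped reads of the library) in both fibroblast lines and far lower in blastocysts and in passage 10 stem cells. They are 4 of 23159 usable features in the files of the control and passage 10 libraries, and 4 of 24616 in the files of the later passages. Their contrast between fibroblasts and the early samples was therefore chosen and is given as a description, with no test.

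RNA was sequenced from 14 cattle samples, 1 library each. The stem cells were CTFR-bESC, cultures derived from bovine blastocysts, kept on a layer of mouse embryonic fibroblasts in a base medium without growth factors to which human FGF2 and IWR1, an inhibitor of WNT signalling, were added. Line A was collected at passages (P) 10, 13, 23, 35 and 45 and line B at P10, 12, 24, 35 and 46. The controls were 2 pools of 10 whole in vivo blastocysts, each with its trophectoderm still in place, and 2 lines of skin fibroblasts, called lines 1 and 2 here and A and B in the labels. All stem cell groups shared the feeder layer, FGF2 and IWR1, and whether feeder cells were removed before RNA was taken is not given in the sources used here. Libraries of 1 stem cell line were serial passages of 1 culture, so p-values over them rest on the spread among passages, with 1 derivation a line.

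Somatostatin, the product of SST, is a small peptide hormone made by hypothalamic neurons, pancreatic delta cells and gut endocrine cells, and it acts through G protein-coupled receptors to restrain the release of growth hormone, insulin and other hormones. Tenascin-C, encoded by TNC, is a large extracellular matrix glycoprotein of embryonic mesenchyme and healing wounds that binds fibronectin and integrins. ESM1 encodes endocan, a small dermatan sulfate proteoglycan known best from activated endothelium, where VEGF raises it. FBLN5 encodes fibulin-5, a matrix protein that brings tropoelastin and lysyl oxidase-like enzymes together on microfibrils and binds integrins, and that dermal fibroblasts need for elastic fibres.

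The labels were set against marker lists. The summed level of 18 fibroblast and mesenchyme markers was 17448 and 18445 RPKM in the fibroblast lines, 678 in P10 line A, 1086 in P10 line B, 839 to 1156 in the later stem cells and 20.4 to 25.4 in the blastocysts. The pluripotent list summed to 0.627 to 2.16 RPKM in fibroblasts, with 7 of its 10 measured genes listed at 0 there, against 885 and 731 in the P10 lines. Of the other lists, smooth muscle and pericyte markers summed to 1905 and 2414 RPKM in fibroblasts (ACTA2 and TAGLN above all), trophectoderm markers to 20.1 to 23.5, keratinocyte markers to 1.55 to 9.70 and blood and immune markers to 1.45 to 1.86. Trophectoderm markers summed to 163 and 193 RPKM in P10 lines A and B, 240 to 798 in later stem cells and 672 to 965 in blastocysts. In the stem cells of both lines CDX2 was listed at 0 and 5 of these 8 genes were under 1 RPKM. The keratins KRT8 and KRT18 had the highest means of this list over the 6 control and P10 libraries, 175 and 132 RPKM. Its other tested genes had means of at most 13.3 RPKM. Smooth muscle and pericyte markers summed to 69.6 and 62.7 RPKM in P10 lines A and B and 109 to 396 in later stem cells. A feature listed at 0 was not read as absent, because GAPDH, which every cell uses, was listed at 0 in all 14 libraries. In the later set, line A at P13 and P35 stood apart from the other 6 libraries on the first principal component. Reads from fewer cells of a type and less RNA per cell cannot be told apart in these bulk samples.

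SST was the member with the widest gap between the lower fibroblast line and the higher P10 library. It stood at 925 RPKM in fibroblast line 1 and 707 in line 2, a mean of 816 ± 154 (SD, n = 2), which ranked it 90 and 102 from the top of 23159 features. P10 line A stood at 0.142 RPKM and P10 line B at 0.114, and both blastocyst pools were listed at 0. The lower fibroblast line was 4978-fold above the higher P10 library, the largest such ratio among the 4 members. The order depended on the ratio taken. Against P10 line A alone the fibroblast mean was 5747-fold higher for SST and 6525-fold for ESM1. At such low P10 levels 1 read weighs heavily. Of the 8 later libraries, line A at P13 was at 0.0947 RPKM and the other 7 were listed at 0. Values of TNC, ESM1 and FBLN5 in the later files were whole multiples of a smallest step, which is what 1 read would be worth. SST had only the P13 value above 0, so that value was taken as 1 step and could be more than 1 read. If a step is 1 read, a count of 0 allows up to 0.277 to 0.400 RPKM (3 reads), so no difference between the lines could be seen at this depth.

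The receptors of somatostatin and genes of prohormone processing in general, not all of which act on prosomatostatin, were described by role, after their values were seen. SSTR1, SSTR3 and SSTR5 were listed at 0 in both fibroblast lines, and SSTR2 was at 0.243 and 0.0470 RPKM. PCSK2 was listed at 0 in both, and PCSK1, the other neuroendocrine convertase that cuts prosomatostatin, was at 0.0400 RPKM and listed at 0. FURIN, the convertase of the general secretory pathway, was at 22.5 and 25.7 RPKM in fibroblasts and at 7.25 and 13.6 in P10 lines A and B. PAM, which amidates peptide ends, was highest of this list in fibroblasts at 64.1 and 95.1 RPKM, against 19.8 and 24.0 in P10. In the limma fit of all first-set genes 35.4% were called higher in P10 stem cells than in fibroblasts and 21.9% lower, with a median log2 change of 0.23. These shares hold for the values as deposited. Of 11761 genes 3348 were higher and 2947 lower under quantile normalization, and 3255 and 2918 under median-of-ratios scaling. Of the 6 tested genes of this list (median 2.87), 4 were higher in P10 and 2, FURIN and PAM, were lower, and these calls held under quantile and median-of-ratios scaling. The 4 higher ones were CPE (carboxypeptidase E, log2 change 3.95 ± 0.37 SE, adjusted p = 0.000241), CHGA (chromogranin A of secretory granules), PCSK1N (proSAAS, an inhibitor of PCSK1) and SCG5 (7B2, the PCSK2 chaperone). CPE, CHGA and PCSK1N were each under 1 RPKM in both fibroblast lines, whereas SCG5 was at 12.0 and 11.4.

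Of the other peptide hormones, NTS, neurotensin, stood at 9.23 and 4.22 RPKM in fibroblasts, and INHBA, the activin A subunit, at 5.27 and 57.0; NPY, VIP, GAL, PENK and TAC1 were listed at 0 in both lines. Of 14 measured neural and neuroendocrine markers, 12 were under 1 RPKM in both fibroblast lines and 7 were listed at 0, among them CHGB and INSM1. Of 6 tested peptide hormone genes 2 were lower and 2 higher in P10 (limma), against 21.9% lower and 35.4% higher among all genes. Under both other scalings 2 stayed lower and 1 higher. The exceptions among the neural markers were NES, nestin, at 52.9 and 131 RPKM, and TUBB3, a neuronal tubulin, at 14.6 and 7.73.

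**Figure D1:**
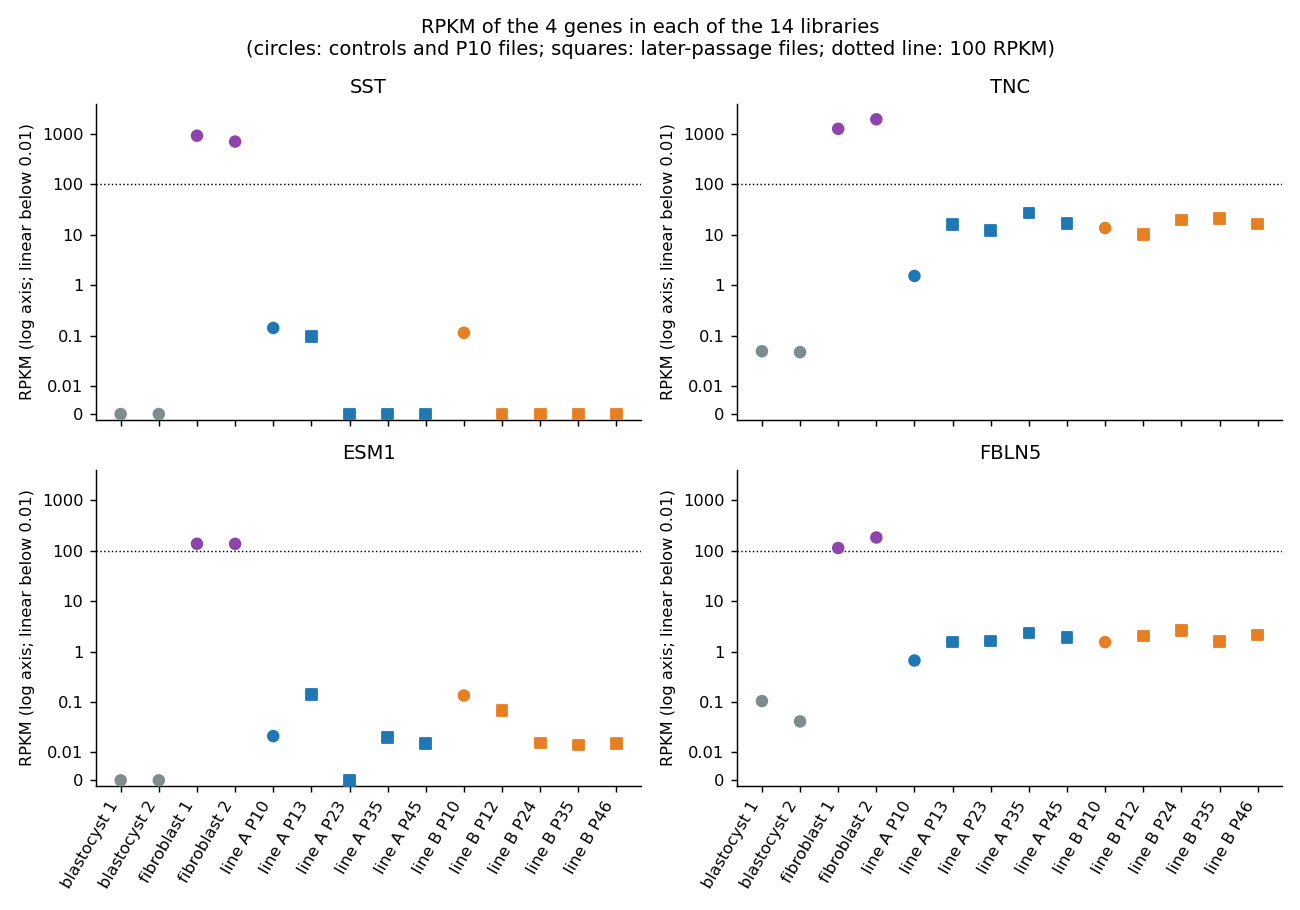
RPKM of each of the 4 genes in each of the 14 libraries, on an axis that is logarithmic above 0.01 RPKM and linear below, so that values listed at 0 can be drawn. Both fibroblast lines stand above 100 RPKM for every gene, while TNC in P10 line A (1.53) stands apart from the other stem cell libraries (10.0 to 27.2).

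TNC was the most abundant member. It reached 1267 RPKM in fibroblast line 1 and 1958 in line 2 (mean 1613 ± 488 SD, n = 2), ranks 64 and 14 of all features. The blastocyst pools were at 0.0490 and 0.0470 RPKM, a ratio of the means of 33596. P10 line A was at 1.53 RPKM and line B at 13.7, so the lower fibroblast line was 92.8-fold above the higher P10 library. TNC was higher in line 2 than in line 1 while SST was lower, and the SST to TNC ratio was 0.730 in line 1 and 0.361 in line 2. With only 1 library a line these differences have no replicate check. On the log2(RPKM + 1) scale line 2 minus line 1 was -0.39 for SST, 0.63 for TNC, -0.0063 for ESM1 and 0.69 for FBLN5. None reached 1, a size that 3.59% of 10416 genes exceeded upward and 2.96% downward.

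Among the other tenascins, TNXB, of connective tissue, was at 28.8 and 3.46 RPKM in fibroblasts, TNN at 2.51 and 2.13, and TNR, the tenascin of the nervous system, was listed at 0. FN1, fibronectin, which tenascin-C binds, was at 348 and 876 RPKM in fibroblasts, 507 and 481 in blastocysts, 45.4 in P10 line A and 236 in P10 line B. Unlike TNC, it was thus as abundant in blastocysts as in a fibroblast line. ITGB1, the beta chain shared by many matrix receptors, was at 385 and 533 RPKM in fibroblasts and 92.2 and 133 in P10. SDC4, a heparan sulfate proteoglycan of focal adhesions, was at 36.8 and 36.0 RPKM in fibroblasts and 4.43 and 7.59 in P10. Leaving TNC aside, 8 of 13 tested genes of this list were lower in P10 than in fibroblasts and 2 were higher (limma, adjusted p under 0.05), against 21.9% and 35.4% of all genes, with a median of -1.69. Under both other scalings 7 stayed lower and 2 higher, and FN1 was the gene lost. The 2 higher genes were the neural tenascin partners PTPRZ1, a receptor phosphatase (log2 change 4.99 ± 0.18 SE, adjusted p = 1.87e-05), and NCAN, neurocan (3.30 ± 0.15 SE, adjusted p = 2.74e-05). PTPRZ1 was at 31.5 and 30.7 RPKM in P10 lines A and B and at or under 0.0130 in fibroblasts.

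ESM1 was the most even member between the fibroblast lines, at 137.3 RPKM in line 1 and 136.7 in line 2 (mean 137 ± 0.426 SD, n = 2). It was listed at 0 in both blastocyst pools and was at 0.0210 RPKM in P10 line A and 0.134 in P10 line B. The lower fibroblast line was 1020-fold above P10 line B. In the later passages line A was at 0.139 RPKM at P13, listed at 0 at P23, at 0.0195 at P35 and at 0.0149 at P45. Line B was at 0.0675 RPKM at P12, 0.0154 at P24, 0.0139 at P35 and 0.0149 at P46. The first later passage was thus the highest in each line, at 10 and 5 steps, and the other 6 libraries held 0 or 1 step. If a step is 1 read, the exact Poisson 95% intervals are 4.80 to 18.4 for 10 reads, 1.62 to 11.7 for 5 and 0.0253 to 5.57 for 1. They cover counting error only. Those of 10 reads and of 5 reads each overlap that of 1 read, but overlap is no test, and none was run on these counts. That of 10 reads lies above the interval of 0 to 3.69 for 0 reads, the count of line A at P23.

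ESM1 is best known from endothelium, so endothelial markers were read beside it. In fibroblasts 10 of 11 measured endothelial genes were under 1 RPKM in both lines, their sum was 1.31 to 6.19 RPKM, and the VEGF receptor KDR was listed at 0 and at 0.0170. ERG, an endothelial transcription factor, was the highest of them at 4.45 and 0.539 RPKM. The other VEGF genes and the enzymes that make dermatan sulfate followed. VEGFC, the lymphatic VEGF, was at 53.7 and 55.1 RPKM in fibroblasts and 0.421 and 3.57 in P10 lines A and B. DSE and DSEL, the epimerases that turn chondroitin into dermatan sulfate, were at 53.6 and 86.6 and at 37.4 and 41.5 RPKM in fibroblasts. In P10 they were at 15.96 and 21.1 and at 4.44 and 5.07. Besides ESM1, 6 of 11 tested genes of this list were lower in P10 and none was higher (limma). Among all genes the shares were 21.9% and 35.4%. None of the list was higher at an unadjusted p under 0.05 either. The median was -1.84, and VEGFC was at a log2 change of -4.44 ± 0.50 (SE, limma, adjusted p = 0.000510). Under both other scalings the 6 stayed lower.

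FBLN5 was the least abundant member by line 1 and lay nearest to the threshold. It was at 113 RPKM in fibroblast line 1 and 183 in line 2 (mean 148 ± 49.4 SD, n = 2). The blastocyst pools were at 0.104 and 0.0410 RPKM, and P10 lines A and B at 0.663 and 1.53. The lower fibroblast line was 73.7-fold above the higher P10 library, the smallest gap of the 4. Between P10 and blastocysts its direction depended on the scaling: the fitted log2 difference was 0.94 as deposited and -0.31 after quantile normalization. The fitted difference turned sign in the same way for SST and ESM1, both listed at 0 in blastocysts, but not for TNC.

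Elastic fibre genes were mostly lower in P10 than in fibroblasts. Leaving FBLN5 aside, 20 of 23 tested genes were lower and 1 was higher (limma), against 21.9% lower and 35.4% higher among all genes. The median log2 change was -2.97. Under both other scalings 19 stayed lower and 1 higher. FBLN1, another fibulin of basement membranes and elastic fibres, was the most abundant at 332 and 378 RPKM in fibroblasts and 35.6 and 51.6 in P10. ELN, the elastin precursor itself, was at 27.1 and 65.7 RPKM in fibroblasts against 0.890 and 0.615 in P10 (log2 change -4.63 ± 0.40 SE, adjusted p = 0.000170). LOX, which cross-links elastin and collagen, was at 176 and 336 RPKM against 2.70 and 4.39. MFAP5, a microfibril protein, differed most between the fibroblast lines, at 261 and 33.8 RPKM. The gene that was higher in P10 was FBN2, the fibrillin of embryonic microfibrils, at 7.68 and 8.36 RPKM against 0.0520 and 0.154 in fibroblasts (log2 change 3.03 ± 0.16 SE, adjusted p = 3.86e-05). FBN1, its counterpart, was at 142 and 129 RPKM in fibroblasts and 4.77 and 14.7 in P10. By its values FBLN5 lay with FBN1, ELN and LOX and apart from FBN2, a side that was fixed by how it was chosen.

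The 4 genes were not the only ones with such values. Of 122 measured secreted genes in the lists, 28 were above 100 RPKM in both fibroblast lines, and 15 of these were also more than 10-fold under the lower line in all blastocyst and P10 libraries. The lists were chosen with earlier results of these data known, so these counts give no rate for secreted genes at large. The 11 besides the members included MMP2, THBS1, DCN, SERPINF1, PCOLCE, IGFBP4, THBS2, LOX, SEMA3C and FGF7. In the list of other secreted fibroblast proteins 54 of 73 tested genes were lower in P10 than in fibroblasts and 6 higher (limma, median -3.05). Among all genes the shares were 21.9% and 35.4%. Of this list 50 stayed lower and 4 higher under both other scalings. Just inside 100 RPKM were GREM1, a BMP antagonist, at 103.5 in its lower line and FBLN5 at 113, and just outside were DKK3 at 95.9, LOXL2 at 93.8 and WISP2 at 90.7. The ratio of the lower fibroblast line to the highest of the other 4 libraries was 80.6 for FGF7, between those of TNC and FBLN5. SST and ESM1 lay far above this at 4978 and 1020, but WISP2, just below the threshold, had a ratio of 3241. Genes outside the lists also met both cut-offs. FMOD, fibromodulin, was at 594 and 222 RPKM in fibroblasts, at most 0.064 in P10 and listed at 0 in blastocysts. ASPN, asporin, was at 124 and 157 RPKM in fibroblasts, at most 0.248 in P10 and at most 0.887 in blastocysts.

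**Figure D2:**
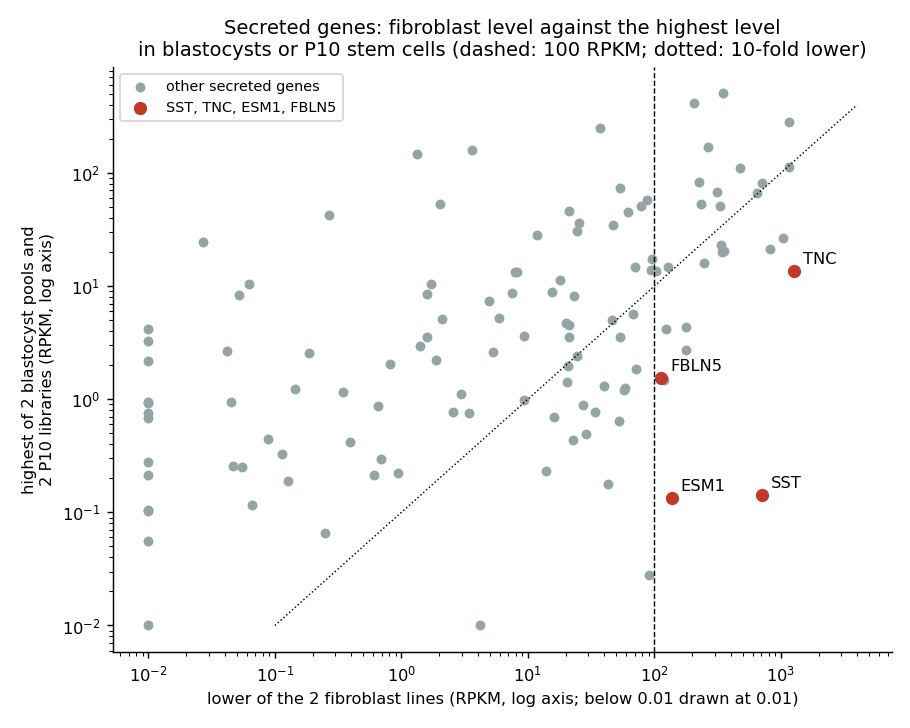
Lower of the 2 fibroblast RPKM values against the highest RPKM among blastocyst and P10 libraries for the secreted genes of the lists, both axes on a log scale with values under 0.01 drawn at 0.01; the dashed line marks 100 RPKM and the dotted line a 10-fold lower level. SST and ESM1 lie low on the early-sample axis at 0.142 and 0.134 RPKM, while TNC (13.7) and FBLN5 (1.53) lie nearer to the other secreted genes.

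The lines differed most in TNC at P10. Line B was at 13.7 RPKM and line A at 1.53, a ratio of 8.93, or 2.53 on the log2(RPKM + 1) scale, and 75 of 11418 genes (0.657%) differed by as much or more in that direction. FBLN5 was 2.31-fold higher in line B (0.61 on that scale), a size that 11.3% of genes reached. ESM1 had a ratio of 6.38 at levels of 0.0210 and 0.134 RPKM, where 1 read weighs heavily. SST was at the same number of steps in both after depth was allowed for (ratio 1.00). With 1 library a line none of this has a replicate check.

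Fibroblast genes as a list lay on the same side as TNC at P10. All 18 fibroblast and mesenchyme markers were above their line A value in line B, and of the 16 at 1 RPKM or more in a P10 library 9 were at least 1 log2 higher, against 4.96% of all genes (1.23% were as much lower). Their median difference was 1.50, with COL1A2, a chain of type I collagen, going from 3.76 RPKM (line A) to 26.0 (line B) and S100A4 from 1.38 to 16.9. The median over all genes was 0.0048, with 50.5% above and 49.5% below. Of 9 pluripotent genes 1 was above in line B, and POU5F1 stood at 223 RPKM in A and at 151 in B. The part of fibroblast-type cells, feeders included, in the TNC difference was not tested. Of the tenascin list 9 of 11 genes were above in line B, TNC and FN1 among them, and 3 were at least 1 log2 higher. Of the elastic fibre list 15 of 19 were above and 6 were at least 1 log2 higher, with LTBP2, a latent TGF-beta binding protein, at 0.411 and 5.64 RPKM and FBLN2 at 8.27 and 51.4. PTPRZ1 and NCAN were nearly level between the lines, at 31.5 and 30.7 and at 9.16 and 8.68 RPKM. The lean to line B was not particular to fibroblast and matrix lists. Above in line B were 10 of 11 genes of the endocan list (median 0.67) and 6 of 7 of the somatostatin list (0.36). So were 5 of 6 neural and neuroendocrine markers (0.47), but only 1 of 3 trophectoderm and 1 of 3 endothelial markers.

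**Figure D3:**
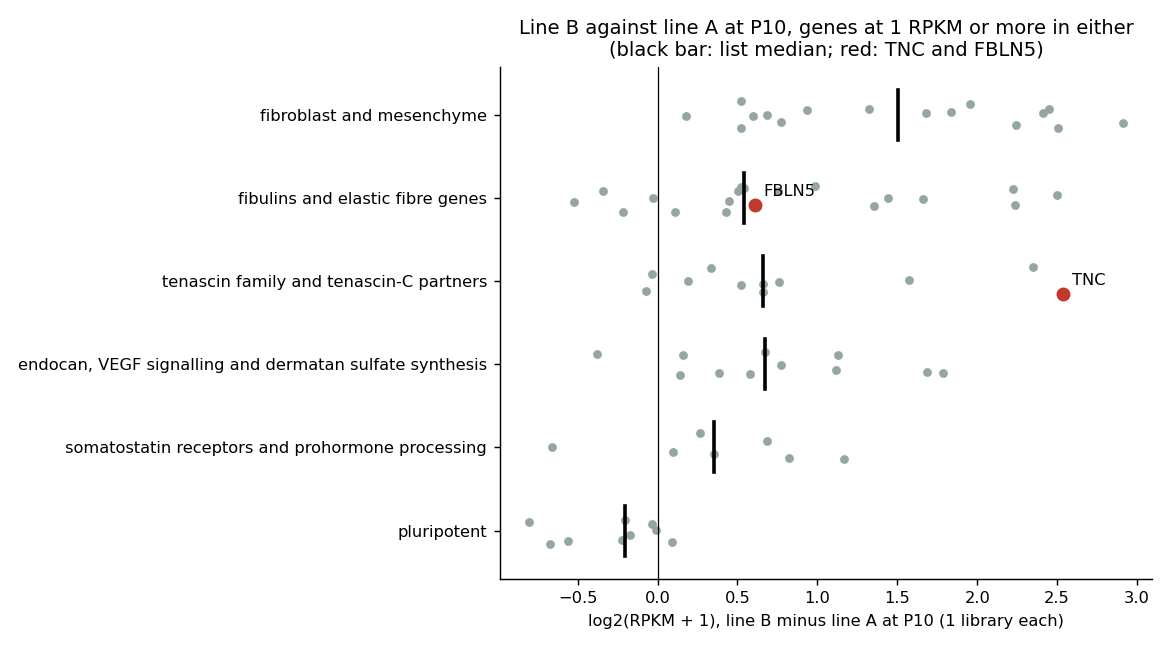
Difference of log2(RPKM + 1) between P10 line B and P10 line A for the genes of each list at 1 RPKM or more in a P10 library, 1 point a gene, with a bar at each list median and TNC and FBLN5 in red. Fibroblast and mesenchyme markers lie above 0 (16 of 16) and pluripotent genes mostly below (1 of 9 above), with TNC at 2.53.

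Values of the later passages were not used to choose the genes, and there the lines overlapped. TNC in line A was at 16.1 RPKM at P13, 12.1 at P23, 27.2 at P35 and 16.8 at P45, a mean of 18.0 ± 6.44 (SD, n = 4). In line B it was at 10.0 RPKM at P12, 19.7 at P24, 20.9 at P35 and 16.5 at P46, a mean of 16.8 ± 4.87 (SD, n = 4). Line A at P35 was highest and line B at P12 lowest, and line B was above line A in 8 of 16 pairs. Adjusted for passage, line B minus line A was -0.09 ± 0.24 on the log2 scale (SE; 95% interval -0.65 to 0.46; limma, adjusted p = 0.925), and an exact two-sided permutation test on the 4 against 4 libraries gave p = 0.83 (smallest possible 0.0286). Its sign turned to 0.26 ± 0.22 without line A at P13 and P35 (adjusted p = 0.926). The interval leaves out the P10 difference of 2.53, but that rested on 1 library a line and the 2 differences were not tested against each other.

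FBLN5 was at 1.53, 1.63, 2.33 and 1.88 RPKM in line A at P13, P23, P35 and P45 (mean 1.84 ± 0.359 SD, n = 4). Line B was at 2.05, 2.63, 1.56 and 2.13 RPKM at P12, P24, P35 and P46 (mean 2.09 ± 0.440 SD, n = 4). The groups overlapped, with line B above line A in 11 of 16 pairs. The difference was 0.12 ± 0.15 (SE; 95% interval -0.22 to 0.45; limma, adjusted p = 0.843), and the exact two-sided permutation test gave p = 0.457. ESM1 did not pass the filter of 1 RPKM in 2 libraries, and its exact permutation p was 0.771. SST, with 1 step in 1 library, allowed no test of the lines. Neither TNC nor FBLN5 was called between the lines, where 0.0156% of 12785 genes were called higher in line B and 0% lower. The p-values of these 3 permutation tests are unadjusted.

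Passage moved neither tested gene beyond its spread. Per 10 passages TNC changed by 0.16 ± 0.10 log2 (SE; 95% interval -0.06 to 0.39; limma, adjusted p = 0.961) and FBLN5 by 0.02 ± 0.06 (-0.11 to 0.16; adjusted p = 0.973). Among all genes 0 were called in either direction with passage, against 494 at an unadjusted p under 0.05. Between the lines 2 genes were called higher and 0 lower, with 755 at an unadjusted p under 0.05, and 5 were called higher when libraries of like passage were paired as a block. The 2, named after their values were seen, were ULBP3, a ligand of the NKG2D receptor, at 0 to 0.145 RPKM in line A and 3.26 to 8.28 in line B, and SYCP3, a synaptonemal complex protein, at 4.07 to 8.21 and 11.4 to 26.1. In every one of the 14 lists 0 genes were called for line or passage, TNC's and FBLN5's partners included (limma; of 167 list genes tested, 14 had an unadjusted p under 0.05 for line and 22 for passage). FN1 was at 140 to 337 RPKM over the 8 libraries, with a line difference of 0.04 ± 0.20 (SE), and FBLN1 at 52.5 to 103 RPKM, with 0.09 ± 0.18. The fibroblast markers, whose P10 values set line B above line A, had a median line difference of -0.07 in the later passages, 6 above and 11 below.

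**Figure D4:**
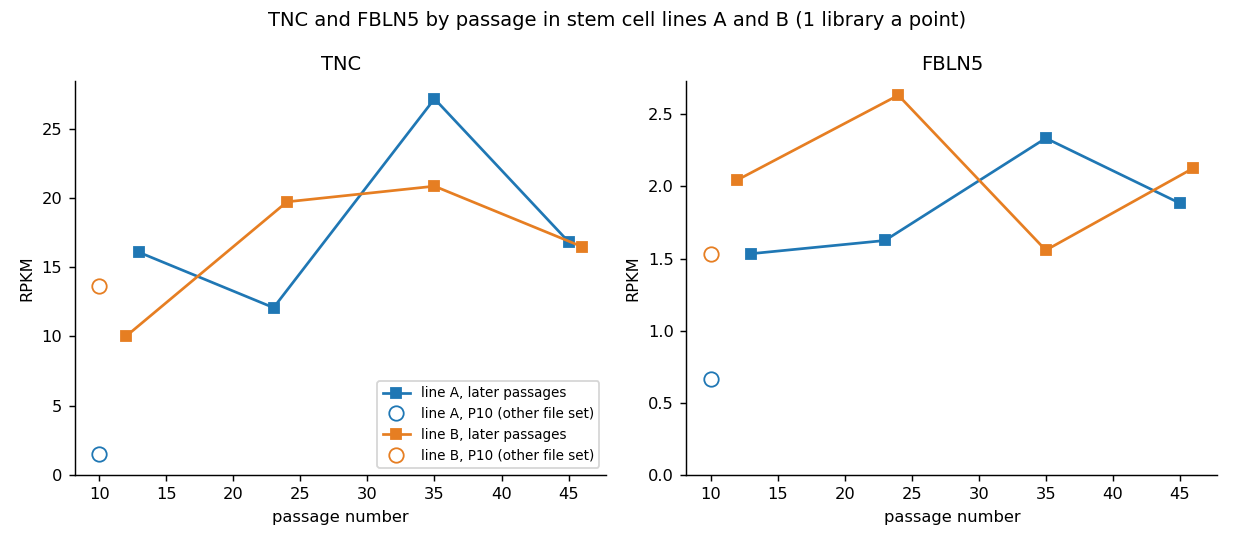
RPKM of TNC and FBLN5 by passage number in stem cell lines A and B, 1 point a library, P10 from another set of files than the later passages. TNC in line A stands at 1.53 at P10 and at 12.1 to 27.2 afterwards, while line B runs from 10.0 to 20.9 over all 5 passages.

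P10 and later libraries came in separate sets of files with different feature lists, so passage and file set cannot be told apart, and the levels are set side by side. In line A TNC was 1.53 RPKM at P10 and 18.0 on average later, a ratio of 11.8, whereas in line B it was 13.7 and 16.8, a ratio of 1.23. For FBLN5 the ratios were 2.78 in line A and 1.36 in line B. The mean log2 level of the 18 fibroblast markers was 2.33 in P10 line A, 3.66 in P10 line B and 3.38 to 4.08 in the 8 later libraries. P10 line A was thus the low library for TNC, for FBLN5 and for the fibroblast list, and their relation was not tested. Even at these levels TNC in fibroblasts was 92.6-fold and FBLN5 75.2-fold above the later mean.

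The genes with the most similar profile over all 14 libraries were found by the root mean square difference of centred log2(RPKM + 1), among 18440 shared symbols. For SST these were FMOD, fibromodulin (0.478, at 594 and 222 RPKM in fibroblasts), WISP2 (0.893) and ESM1 (0.901). For TNC they were the collagen chains COL6A1 (0.458), COL1A2 (0.480) and COL6A2 (0.739). ESM1 lay nearest to WISP2 (0.249), ASPN, asporin (0.284), and TFPI2, a protease inhibitor (0.364). FBLN5 lay nearest to NEXN, an actin-binding protein (0.243), the homeobox gene PRRX2 (0.360) and COL14A1 (0.364). Since the fibroblast gap sets these distances, profiles were also compared over the 8 later libraries alone, as a description. There, among 12785 genes, TNC correlated most with NEDD4, a ubiquitin ligase (Pearson r = 0.991), ESD (0.981) and CEMIP, which degrades hyaluronan (0.976). FBLN5 correlated most with ENSBTAG00000011072 (0.949), DUSP12 (0.937) and COL12A1 (0.937). The highest of so many r values over 8 libraries can be large for unrelated genes, and none was tested. The first principal component held 52.5% of the variance of these libraries. TNC and FBLN5 had r = 0.314 with each other over those 8 libraries, which share serial cultures and feeder layers.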

How the data were processed

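Total RNA libraries made with a TruSeq RNA kit were deposited by the authors as 1 table of RPKM values per sample. Per the submitters' processing notes the build was UMD3.1 and edgeR was used, with no role stated. For the aligner, counter, annotation and library totals the sources used here give nothing, so depth in reads is unknown. In the later files every value of TNC, ESM1 and FBLN5 was a whole multiple of a step within 0.01 of a step. SST had 1 value above 0, which was taken as its step, so this could not be checked for SST. From such steps the later libraries had 0.710 to 1.027 times the depth of line A at P13, and P10 line B 1.24 times that of P10 line A. No count test was run.

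In the first set 26 unreadable names, 25 date names and 21 blank values were left out. In the second 26 names were restored in 5 files. Of 21008 names in both sets 2568 with a copy suffix were not compared across sets.

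Genes at 1 RPKM or more in 2 libraries were fitted as log2(RPKM + 1), which understates changes of low genes, with limma 3.58.1 (R 4.3.3, trended empirical Bayes, two-sided, Benjamini-Hochberg adjusted p under 0.05 over all genes). The first fit held the 6 first-set libraries as 3 groups, and the second the 8 later libraries with line and passage number. Relative to the median gene, changes in P10 minus fibroblasts are lower by 0.23. The median log2 change over all genes was larger in the other 2 contrasts of that fit. It was -1.15 for blastocysts minus fibroblasts and 1.43 for P10 minus blastocysts. Permutation tests used scipy 1.17.1, and files were read with Python 3.11.15 and pandas 2.3.3. The fits were tested on simulated data.

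Members and lists (6 pathway and 8 marker lists) were chosen with earlier results of these data known. Of each list the text names up to 3 genes with the highest fibroblast RPKM, genes most like a member, and secreted genes near 100 RPKM; other genes were named by role or after their values were seen, and some genes of the lists are not reported here. The deviations of like-passage pairs had correlations of 0.166, 0.101, 0.291 and 0.572, all 4 above 0.1, and the pairs were also fitted as a block. Some pairs of unlike passage correlated more. Line A at P13 had 0.375 with line B at P35, and line A at P23 had 0.565 with line B at P46. The best match was of like passage for 2 of 4 line A libraries and 3 of 4 line B libraries. No promoter or protein sequence was used here. Alternatives were other pseudocounts, filters and scalings, no trend, and libraries left out.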

Additional observations from a re-analysis of the deposited data

Results flagged for a closer look

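In 3 of the 7 gene and line groups of later passages examined, 1 of 4 libraries stood apart from the others by more than Dixon's 95% critical value. Chance gives about 1 in 20 for continuous values, a rate that does not hold for the few steps counted here, and with 1 step in 4 libraries the outcome is fixed whichever library holds it. SST in line A at P13 was at 0.0947 RPKM, taken as 1 step, beside 3 libraries listed at 0. ESM1 in line A at P13 was at 0.139 RPKM (10 steps) beside 0 to 0.0195, and ESM1 in line B at P12 was at 0.0675 RPKM (5 steps) beside 0.0139 to 0.0154. All 3 are the first later passage of their line and lie under 1 RPKM. The fitted slope of ESM1, without the filter on low values, was -0.031 ± 0.014 log2 per 10 passages (SE; limma, adjusted p = 0.971).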

How the results depend on the processing

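The direction of the 4 genes against fibroblasts was fixed by how they were chosen; the size of the fitted difference ran from 5.80 to 16.3 log2 over 88 alternative values. Leaving out P10 line A or line B moved the fitted TNC change against fibroblasts to -6.75 or -9.28, and against blastocysts to 3.81 or 1.27. P10 minus blastocysts turned sign under quantile normalization for SST (-0.0802), ESM1 (-0.116) and FBLN5 (-0.31).

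For the later passages the TNC line difference ranged from -0.23 to 0.43 over 17 alternatives (adjusted p 0.623 to 0.999). It turned positive without line A at P35 (0.0887), without line B at P12 (0.0873) or P46 (0.0217), without line A at P13 and P35 (0.262) and with P10 added (0.43, adjusted p = 0.642). FBLN5 stayed between 0.0278 and 0.215. The TNC slope ranged from 0.0602 to 0.233 over 16 alternatives, and the FBLN5 slope reached 0.0418 and turned to -0.0053 without line A at P13 and to -0.0074 without P13 and P35. None of these passed the threshold. With the replicate block of like passages TNC was -0.09 ± 0.19 and FBLN5 0.12 ± 0.15, and 5 genes were called higher in line B in place of 2; no other call changed.

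Counts over all genes moved more. Line B higher gave 5 at pseudocount 0.1, 1 at 0.01, 0 with no filter, 1 under quantile, 1 under median-of-ratios scaling, 0 without line A at P13 and P35, and 0 to 5 leaving out 1 library. Leaving out 1 library gave 0 to 2 genes falling with passage (2 without line A at P23). P10 minus fibroblasts went from 4160 higher and 2576 lower to 3348 and 2947 (quantile) or 3255 and 2918 (median of ratios). Blastocysts minus fibroblasts went from 1289 higher and 7457 lower to 3861 and 3580 (quantile) or 3654 and 4169 (median of ratios), and P10 minus blastocysts from 8583 and 862 to 3508 and 3546 or 4237 and 3399. Leaving out 1 library gave P10 minus fibroblasts 2426 to 3901 higher and 1691 to 2413 lower. It gave 737 to 1271 and 6576 to 7381 for blastocysts minus fibroblasts, and 7179 to 8578 and 433 to 882 for P10 minus blastocysts. The cause of these moves was not tested. Depth limits SST and ESM1, which held 0 to 10 steps per later library.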
